A study of Mus musculus with 8 samples.

Results

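The endothelial genes of the dental vessels were followed here in the molar tooth germs of mouse embryos after their mothers had been injected with agents that block Hedgehog signalling, or with a control. The module held 35 genes chosen as known genes of the cells that line blood and lymphatic vessels, and every probe set that the platform annotation gives exactly 1 of these genes was taken. This gave 61 of the 45101 probe sets of the array and 35 of the 18161 genes measured. Each gene was represented by its probe set with the highest mean level, and 33 of the 35 genes lay above the filter on dim probe sets. The other two, Vwf and Prox1, lay below it and were not tested. Gpr116 is now named Adgrf5.

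RNA came from mandibular molar tooth germs, 1 Affymetrix array per sample and 2 arrays per group, and the labels name no transgene or mutation in any group. Pregnant ICR mice, an outbred stock, were injected once into the peritoneum on embryonic day 14, and the germs were taken from their embryos 24 hours later. The 4 groups received 5E1, a monoclonal antibody against the Shh protein, at a dose of 10 mg/kg, cyclopamine, which antagonises the Shh signal transducer Smo, at the same dose, 40-1a, an isotype-matched antibody to the bacterial enzyme β-galactosidase, also at 10 mg/kg, or 1 ml of phosphate buffered saline (PBS). 5E1 was compared with 40-1a and cyclopamine with PBS, and the question was which genes of the tooth germ depend on Shh. The labels do not give the vehicle of cyclopamine, the age of the dams, or the number of embryos or litters behind a sample, and they call the 2 arrays of a group biological replicates, so the p-values measure the spread among samples of unknown litter.

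Blood vessels surround the tooth germ and enter its dental papilla as it grows. Endothelial cells respond to vascular endothelial growth factors (VEGF) through the receptors Kdr, Flt1 and Flt4 and to angiopoietins through Tek, hold together through junction proteins such as Cdh5 and Pecam1, and keep their identity through transcription factors of the ETS family (Erg, Fli1, Ets1, Etv2) and the SoxF group (Sox7, Sox17, Sox18). Shh is made by the dental epithelium and acts on epithelium and mesenchyme around it.

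RefSeq promoters of build GRCm38.p6, each 300 bases long, matched 17 of the 35 genes with 24 promoters. They are shown for 3 receptor genes that define the lineage and for Etv2, whose values differed from those of the other members. The RefSeq gene start lies within the 300 bases shown for Tek but upstream of those shown for Kdr, Flt1 and Etv2. Capitals mark GGAAG on the printed strand, or CTTCC where it lies on the other strand, a form of the short core that ETS factors bind. All sequences run 5′ to 3′ on the strand of the gene. Kdr lies at chr5:75978406-75978705 on the minus strand, Flt1 at chr5:147725962-147726261 on the minus strand, Tek at chr4:94739039-94739338 on the plus strand and Etv2 at chr7:30635803-30636102 on the minus strand.
Kdr: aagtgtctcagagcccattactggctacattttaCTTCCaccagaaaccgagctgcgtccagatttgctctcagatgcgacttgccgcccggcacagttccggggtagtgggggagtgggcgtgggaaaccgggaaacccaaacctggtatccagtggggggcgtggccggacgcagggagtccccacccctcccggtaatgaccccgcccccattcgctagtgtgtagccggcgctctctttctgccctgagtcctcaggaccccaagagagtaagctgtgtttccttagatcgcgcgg
Flt1: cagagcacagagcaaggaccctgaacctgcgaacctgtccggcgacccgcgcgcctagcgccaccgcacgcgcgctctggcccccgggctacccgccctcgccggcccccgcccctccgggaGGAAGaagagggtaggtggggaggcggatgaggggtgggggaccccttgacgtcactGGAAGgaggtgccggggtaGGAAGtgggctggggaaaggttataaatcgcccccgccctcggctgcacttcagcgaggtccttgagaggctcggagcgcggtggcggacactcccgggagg
Tek: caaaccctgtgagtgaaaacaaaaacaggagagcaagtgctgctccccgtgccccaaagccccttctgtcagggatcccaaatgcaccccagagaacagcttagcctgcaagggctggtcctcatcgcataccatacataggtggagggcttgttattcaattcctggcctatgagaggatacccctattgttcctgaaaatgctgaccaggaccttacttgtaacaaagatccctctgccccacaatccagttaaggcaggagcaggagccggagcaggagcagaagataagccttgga
Etv2: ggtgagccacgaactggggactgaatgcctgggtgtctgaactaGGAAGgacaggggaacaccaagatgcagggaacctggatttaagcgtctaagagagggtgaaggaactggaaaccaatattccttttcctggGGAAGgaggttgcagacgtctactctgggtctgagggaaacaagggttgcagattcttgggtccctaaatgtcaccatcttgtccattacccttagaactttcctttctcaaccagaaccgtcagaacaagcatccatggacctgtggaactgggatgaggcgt
The window held 1 such match in Kdr, 3 in Flt1, 2 in Etv2 and 0 in Tek. GGAAG was present on either strand in 18 of the 24 promoters of the module (75%), against 71.4% of all 32851 promoters. The letters ACAAT, or ATTGT on the other strand, which lie in many sites of Sox factors, were present in 5 of the 24 (20.8%), against 31.0% of all promoters, and occurred 2 times in Tek. A match is a description of these letters and not a binding site.

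Before any comparison of groups, the arrays themselves differed. Correlations between the replicates of a group were 0.946 to 0.970 over all tested genes. A clustering on the 12806 tested genes of no list was cut into 3 clusters of arrays, a chosen number, and these crossed the groups. The first held replicate 1 of 5E1, 40-1a and PBS, the second replicate 2 of 5E1, cyclopamine and 40-1a, and the third cyclopamine replicate 1 and PBS replicate 2. Probe sets of 18S ribosomal RNA had a mean signal of 2548 in cyclopamine replicate 1 and of 52.9 to 448 in the other 7 arrays. All 11 epithelial and all 10 dental mesenchyme genes analysed lay above the filter, but so did all 12 skeletal muscle genes and 17 of 18 macrophage and leukocyte genes. Blocking was checked with Ptch1, a receptor and target of the pathway, whose signal was 2122 and 1553 after 5E1 and 11322 and 7180 after 40-1a, a log2 difference of -2.31 (SE 0.30). After cyclopamine it was 9683 and 5793, against 9611 and 8474 after PBS, a log2 difference of -0.27 (SE 0.30), and Gli1, another target, differed by 0.08 (SE 0.40). Hhip, also a target, differed by -0.63, so 2 of the 3 targets tested were lower on average after cyclopamine. Between arrays of the same replicate number, the median of the 3 targets was 0.01 in replicate 1 and -0.78 in replicate 2, where all 3 were lower. In replicate 2 all 3 were also lower after 40-1a than after PBS (median -0.43). None of the 3 passed the test. The values do not show a block shared by both cyclopamine arrays, which are therefore named by their label.

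Most members of the module were high or low on the same arrays, within groups as well as between them. Each tested member was set against its own mean over the 8 arrays on the log2 scale, and the median of the 33 deviations was taken per array. It was 0.41 and -0.62 in 5E1 replicates 1 and 2, 0.10 and -0.32 in those of cyclopamine, 0.21 and -0.29 in those of 40-1a, and 0.47 and 0.12 in those of PBS. Replicate 2 was the lower array of every group. The summed signal of the 33 genes showed the same split, at 22439 and 10394 after 5E1, 17655 and 12708 after cyclopamine, 18976 and 13652 after 40-1a, and 23573 and 17757 after PBS. In bulk tissue, fewer endothelial cells and less RNA per endothelial cell cannot be told apart.

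**Figure D1:**
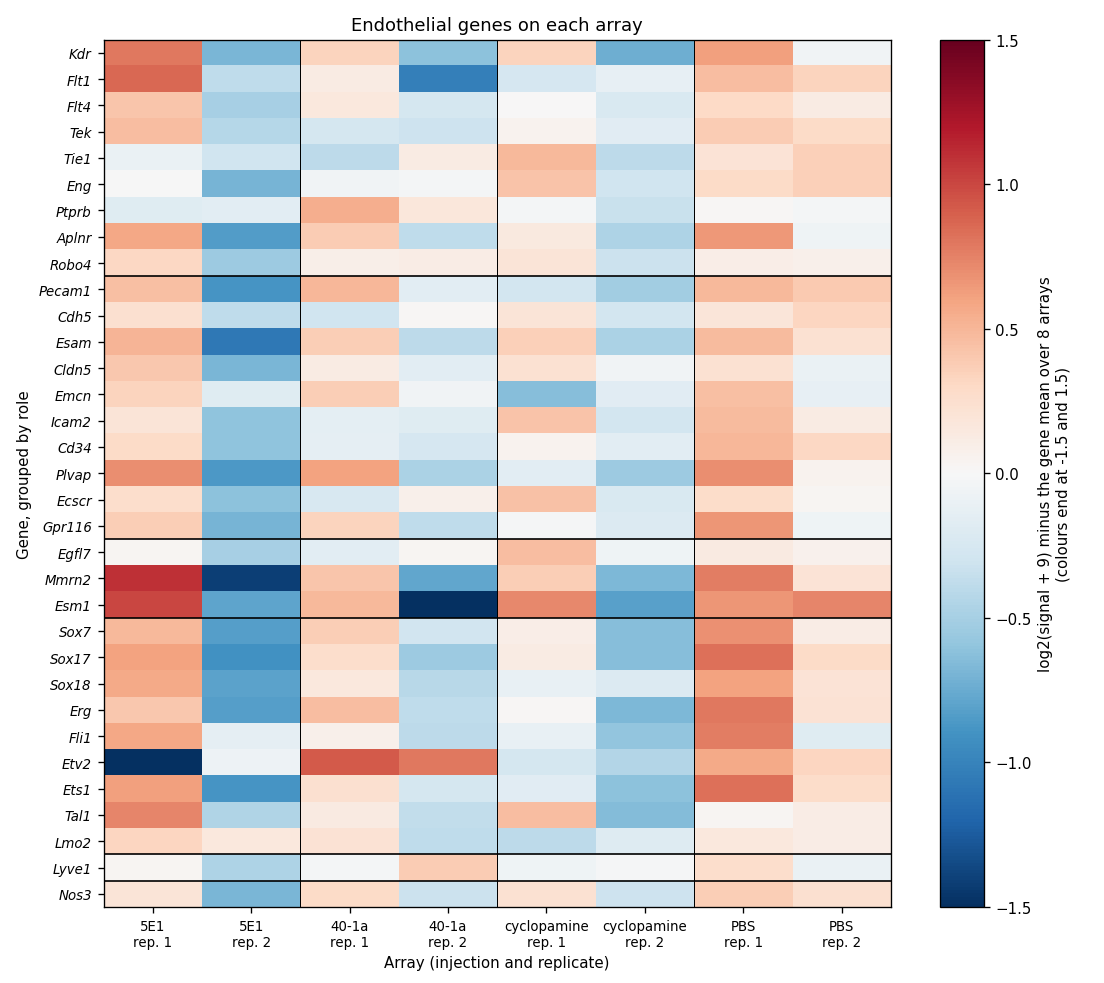
Heat map of the 33 tested endothelial genes (rows, black lines between roles) over the 8 arrays (columns, by group), coloured by the log2 deviation of each gene from its mean over the 8 arrays, with colours ending at -1.5 and 1.5. Most rows are below their mean in 5E1 replicate 2 and above it in 5E1 replicate 1 and PBS replicate 1, while Etv2 is lowest in 5E1 replicate 1.

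The median difference of replicate 2 minus replicate 1 was -0.90 on the log2 scale in 5E1, where 31 of 33 members were lower. It was -0.48 in cyclopamine (29 lower), -0.50 in 40-1a (26 lower) and -0.24 in PBS (28 lower), while the medians over all genes lay between -0.05 and 0.00. Across the groups, 19 of the 33 members (57.6%) were lower in replicate 2 all 4 times, against 18.8% of all genes tested. None of the members was higher in replicate 2 of all 4 groups. 5E1 replicate 2 was the lowest of the 8 arrays for 23 of 33 members, against 17.1% of all genes, and the highest array was 5E1 replicate 1 for 12 members and PBS replicate 1 for another 12. The median SD of a member over the 8 arrays was 0.44 on the log2 scale, against 0.24 over all genes. Taken relative to the module's median of each array, it was 0.27, and it was smaller for 26 of the 33 members. That median comes from the same 33 members, so part of this fall is built in, and no other list was treated in this way.

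Genes of other cell types also differed between the replicates. The median deviation of 10 dental mesenchyme genes was 0.20 and -1.26 after 5E1, 0.48 and -0.55 after cyclopamine, 0.41 and -0.38 after 40-1a, and 0.46 and 0.48 after PBS (replicates 1 and 2). That of 17 macrophage and leukocyte genes was 0.44 and -0.41 after 5E1, -0.05 and -0.18 after cyclopamine, 0.07 and -0.13 after 40-1a, and 0.32 and -0.07 after PBS. That of 11 epithelial genes ran the other way, at -0.28 and 0.47 after 5E1, -0.12 and 0.39 after cyclopamine, -0.34 and 0.35 after 40-1a, and -0.38 and -0.10 after PBS. Mesenchyme and macrophage genes were thus low, and epithelial genes high, in the 5E1 array where the endothelial genes were lowest. The 11 genes of mural cells, the pericytes and smooth muscle around vessels, spanned only -0.18 to 0.28 over the 8 arrays. Skeletal muscle genes had the widest span of these lists, from -1.37 in 40-1a replicate 1 to 1.57 in cyclopamine replicate 2. The part that cell composition played in the endothelial values was not tested.

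**Figure D2:**
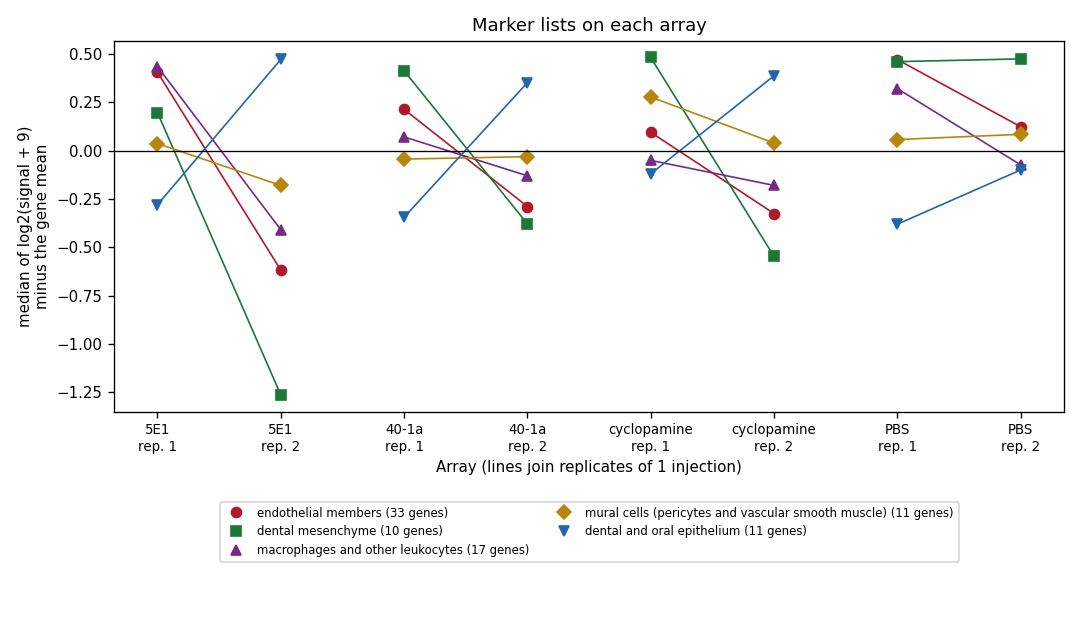
Median log2 deviation from the gene mean (vertical axis) on each array for the endothelial genes and the lists of mesenchyme, macrophage, mural and epithelial genes, with lines joining the replicates of a group. The endothelial median spans -0.62 to 0.47 and the mesenchyme median -1.26 to 0.48, while the epithelial median is highest in 5E1 replicate 2.

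After 5E1, compared with 40-1a, no endothelial gene passed the test (limma with Benjamini-Hochberg adjustment over 12988 genes, threshold 0.05). This was also the count over all genes (0.0% called), and the smallest adjusted p of a member was 1.00. Of the 33 members, 12 were higher and 21 lower on average, against 46.7% and 53.3% of all genes. Both 5E1 arrays lay below both 40-1a arrays for 2 members, Etv2 and Ptprb (10.8% of all genes), and above them for 0 members (8.65%). The median log2 difference was -0.10, against -0.01 over all genes. Only Etv2 had an unadjusted p under 0.05, as 1.22% of all genes did. It passed the filter only through its 40-1a and PBS arrays, so its p and its lack of overlap are no support for a difference. The median SE of a member was 0.39, which limits what 2 arrays a group could resolve.

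The direction of the module after 5E1 differed between the 2 replicate numbers. The labels do not pair the arrays, and the numbers serve here only to set single arrays side by side. In replicate 1, 27 of 33 members were higher after 5E1 than after 40-1a, with a median of 0.26. In replicate 2, 29 of 33 were lower, with a median of -0.40. For 23 members (69.7%) the sign was up in replicate 1 and down in replicate 2, against 24.7% of all genes. Without 5E1 replicate 1 the module's median was -0.64 with 30 members lower, and without 5E1 replicate 2 it was 0.42 with 30 members higher. The 4 members higher in both were Flt1, Fli1, Esm1 and Lmo2, and the 6 lower in both were Etv2, Ptprb, Pecam1, Emcn, Erg and Nos3.

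After cyclopamine, compared with PBS, no endothelial gene passed the test either (0.0% of all genes called, smallest adjusted p of a member 0.982), and none had an unadjusted p under 0.05, against 1.57% of all genes. Of the 33 members, 31 were lower and 2 higher on average, where 46.8% of all genes were lower and 53.2% higher. The median log2 difference was -0.42, against 0.02 over all genes. For 15 members both cyclopamine arrays lay below both PBS arrays, which was so for 14.3% of all genes, and for 0 members both lay above (17.8%). In replicate 1, 25 members were lower after cyclopamine than after PBS, in replicate 2, 31 were, and 23 were lower in both, against 24.6% of all genes.

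**Figure D3:**
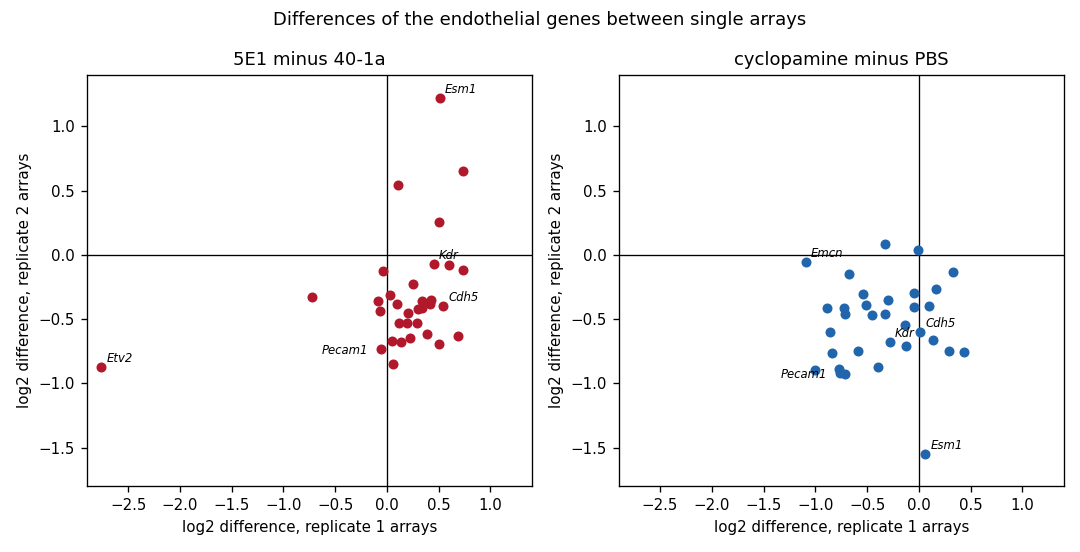
Log2 difference between the replicate 2 arrays (vertical axis) against that between the replicate 1 arrays (horizontal axis) for the 33 tested endothelial genes (points), for 5E1 minus 40-1a on the left and cyclopamine minus PBS on the right. On the left 23 genes lie above 0 in replicate 1 and below 0 in replicate 2, and on the right 23 lie below 0 in both.

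This difference was smaller when arrays of the same cluster were compared, but the clusters were drawn from the expression values of these same arrays. Only the third cluster held arrays of both groups, a single array of each and of different replicate numbers. Its cyclopamine array was the array with the 18S signal of 2548. The cause of the smaller difference was not tested. With the array clusters as a block, the module's median was -0.08 with 20 of 33 members lower. Within the third cluster, cyclopamine replicate 1 against PBS replicate 2, 17 members were lower and 16 higher, with a median of -0.01 against 0.05 over all genes. Without cyclopamine replicate 1 the median was -0.61 with all 33 lower, and without cyclopamine replicate 2 it was -0.15 with 23 lower. In the same comparison all 11 epithelial genes were higher on average (median 0.38), 9 of 10 mesenchyme genes lower (-0.42), 14 of 17 macrophage genes lower (-0.27), 6 of 8 erythroid genes lower (-0.27) and 11 of 12 skeletal muscle genes higher (1.14). The replicates went opposite ways in muscle and mesenchyme: the medians were -0.35 in replicate 1 and 2.32 in replicate 2 for muscle, and 0.09 and -0.98 for mesenchyme. The part of these cell types in the endothelial difference was not tested.

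**Figure D4:**
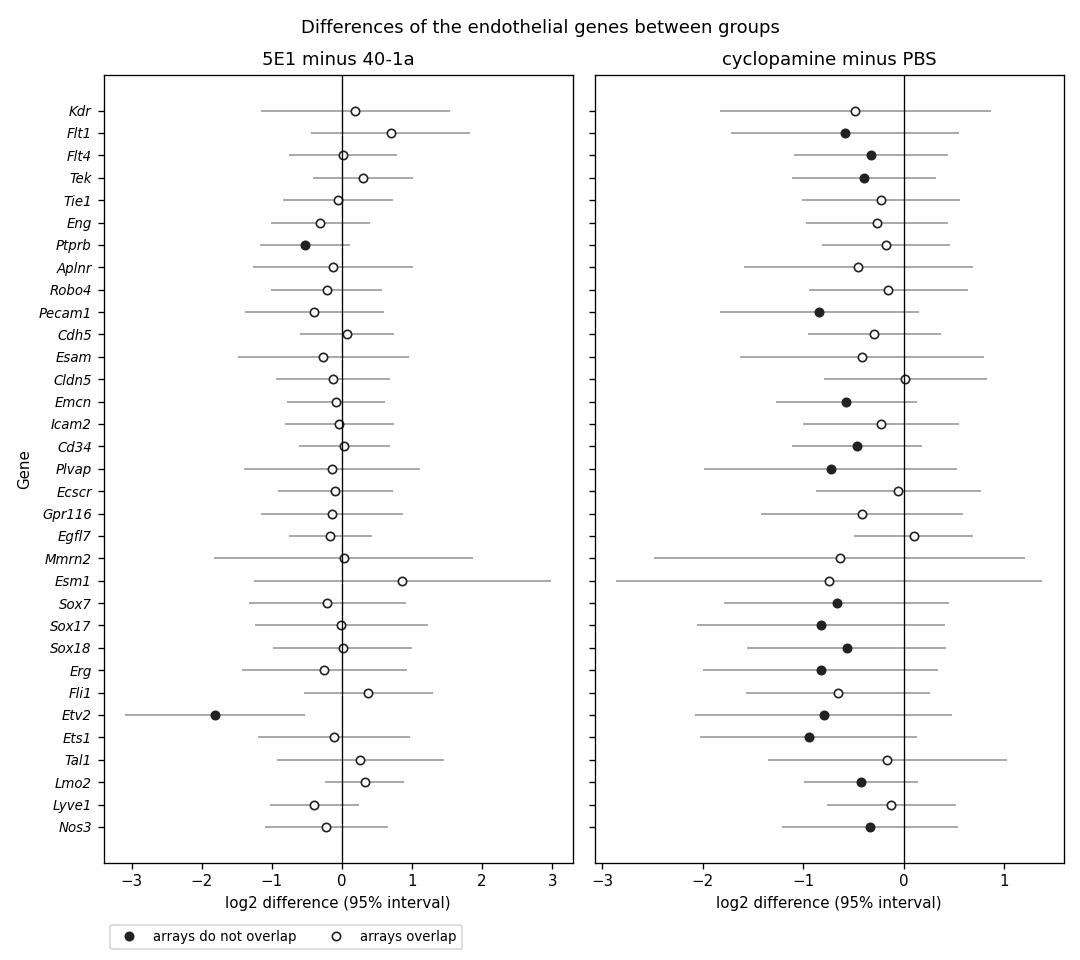
Log2 difference (horizontal axis) with its 95% interval in limma for each of the 33 tested endothelial genes (rows, by role), for 5E1 minus 40-1a on the left and cyclopamine minus PBS on the right, with filled points where the arrays of the groups do not overlap. On the left 12 points lie above 0 and 21 below, with Etv2 farthest from 0 at -1.82, and on the right 31 of 33 lie below 0, 15 of them filled.

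Of the 9 receptors and co-receptors, 4 were higher and 5 lower after 5E1 than after 40-1a (median -0.06), and all 9 were lower on average after cyclopamine than after PBS (median -0.33), 3 of them with no overlap of arrays (14.3% of all genes). In 40-1a minus PBS, 7 of the 9 were lower (median -0.36), 4 with no overlap (10.8% of all genes), and 1 was higher with no overlap (9.7%). Kdr, the main signalling VEGF receptor, had a signal of 668 and 234 after 5E1 and 484 and 227 after cyclopamine, against 485 and 246 after 40-1a and 590.2 and 369 after PBS. Its 2 arrays differed more within every group than the groups did. The log2 difference was 0.19 (SE 0.58) for 5E1 minus 40-1a and -0.48 (SE 0.58) for cyclopamine minus PBS.

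Flt1, the VEGF receptor that mostly acts as a trap for the ligand, had a signal of 306 and 125 after 5E1 and 138 and 152 after cyclopamine, against 180.0 and 76.6 after 40-1a and 231 and 211 after PBS. Both cyclopamine arrays lay below both PBS arrays, while the antibody groups overlapped. 5E1 minus 40-1a gave a log2 difference of 0.69 (SE 0.49) and cyclopamine minus PBS one of -0.58 (SE 0.49). Its 4 probe sets did not share a direction: 2 were higher and 2 lower after 5E1 (-0.51 to 0.69), and 1 was higher and 3 lower after cyclopamine (-0.94 to 0.04). Flt4, the VEGF receptor of lymphatic and sprouting vessels, ranged from 222 to 423 over the 8 arrays, with both extremes in the 5E1 group.

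Tek, the receptor of the angiopoietins, had a signal of 425 and 224 after 5E1 and 316 and 269 after cyclopamine, against 252 and 245 after 40-1a and 399 and 373 after PBS. The 5E1 arrays lay on either side of the 40-1a arrays, and both cyclopamine arrays lay below both PBS arrays. On the log2 scale the difference was 0.31 (SE 0.31) for 5E1 minus 40-1a and -0.39 (SE 0.31) for cyclopamine minus PBS. Its relative Tie1 ranged from 193 to 364, with the highest signal in cyclopamine replicate 1.

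Ptprb, the phosphatase that dampens Tek and Cdh5 signalling, had a signal of 129.5 and 132 after 5E1 and 145 and 116 after cyclopamine, against 220.5 and 167 after 40-1a and 151 and 145 after PBS. Both 5E1 arrays lay below both 40-1a arrays, but the 40-1a arrays also lay above both PBS arrays. The log2 difference was -0.53 (SE 0.28) for 5E1 minus 40-1a, and its second probe set above the filter gave 0.05. Among the other receptors, Eng, a co-receptor of the TGF-β family, ranged from 372 to 819, Aplnr, the receptor of apelin, from 2023 to 5710, and Robo4, a Slit-family receptor of endothelium, from 125 to 232.

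Of the 10 junction and surface proteins, 2 were higher and 8 lower after 5E1 (median -0.11), and 9 were lower after cyclopamine (median -0.41), 4 with no overlap of arrays (14.3% of all genes). In 40-1a minus PBS all 10 were lower (median -0.32), 3 with no overlap (10.8% of all genes). Pecam1, an adhesion protein at endothelial contacts, had a signal of 535 and 207 after 5E1 and 321 and 268 after cyclopamine, against 555 and 349 after 40-1a and 549 and 515 after PBS. Both cyclopamine arrays lay below both PBS arrays, and the antibody groups overlapped. Cyclopamine minus PBS gave a log2 difference of -0.84 (SE 0.43, 95% interval -1.83 to 0.15) and 5E1 minus 40-1a one of -0.39 (SE 0.43).

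Cdh5, the cadherin of endothelial junctions, had a signal of 445 and 287 after 5E1 and 431 and 309 after cyclopamine, against 303 and 381 after 40-1a and 428 and 472 after PBS. By this probe set the groups overlapped in both comparisons, and the log2 difference was 0.07 (SE 0.29) for 5E1 minus 40-1a and -0.29 (SE 0.29) for cyclopamine minus PBS. The second Cdh5 probe set above the filter had a signal of 61.2 and 69.3 after cyclopamine and 106.5 and 108.5 after PBS, with no overlap. It gave -0.65 for cyclopamine minus PBS and -0.02 for 5E1 minus 40-1a. Emcn, a sialomucin of veins and capillaries, had a signal of 806 and 559.6 after 5E1 and 406 and 561 after cyclopamine, against 826 and 612 after 40-1a and 873 and 583 after PBS. Both cyclopamine arrays were below both PBS arrays, the second by little, and the log2 difference was -0.57 (SE 0.30). The claudin of endothelial tight junctions, Cldn5, was 1 of 2 members higher on average after cyclopamine. Its signal was 737 and 341 after 5E1 and 651 and 533 after cyclopamine, against 603 and 497 after 40-1a and 653 and 518 after PBS. Both cyclopamine arrays lay between the 2 PBS arrays, with a log2 difference of 0.02 (SE 0.35).

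The remaining surface proteins followed the arrays. Cd34, a sialomucin of vessels and blood progenitors, ranged from 834 in 5E1 replicate 2 to 1804 in PBS replicate 1. Its log2 difference was -0.46 (SE 0.28) for cyclopamine minus PBS and 0.04 (SE 0.28) for 5E1 minus 40-1a. Plvap, which forms the diaphragms of fenestrated capillaries, ranged from 375 to 1120, with both extremes in the 5E1 group. Esam, a junction adhesion protein, ranged from 276 to 844, Icam2 from 325 to 696, Ecscr from 229 to 485 and Gpr116 from 130.0 to 345, each with its lowest signal in 5E1 replicate 2.

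Of the 9 transcription factors, 4 were higher and 5 lower after 5E1 (median -0.01). After cyclopamine all 9 were lower on average (median -0.67), 7 of them with no overlap of arrays (14.3% of all genes). In 40-1a minus PBS, 8 of the 9 were lower (median -0.45), 3 with no overlap (10.8% of all genes), and 1 was higher with no overlap (9.7%). Sox17, a SoxF factor of arterial endothelium, had a signal of 503 and 171 after 5E1 and 358 and 208 after cyclopamine, against 397 and 222 after 40-1a and 593 and 403 after PBS. Both cyclopamine arrays lay below both PBS arrays, and the 5E1 arrays lay on either side of the 40-1a arrays. The log2 difference was -0.82 (SE 0.53) for cyclopamine minus PBS, -1.26 by its second probe set, and -0.01 (SE 0.53) for 5E1 minus 40-1a. The other SoxF genes had cyclopamine minus PBS differences of -0.67 (SE 0.48) for Sox7 and -0.57 (SE 0.43) for Sox18.

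Ets1, an ETS factor of endothelium that mesenchyme also uses, had a signal of 1372 and 477 after 5E1 and 789 and 577 after cyclopamine, against 1049.9 and 738 after 40-1a and 1587 and 1079 after PBS. Both cyclopamine arrays were below both PBS arrays, and its log2 difference was -0.95 (SE 0.47, 95% interval -2.03 to 0.14). All 4 of its probe sets were lower (-0.95 to -0.60). The ETS factors Erg and Fli1 had cyclopamine minus PBS differences of -0.83 (SE 0.51) and -0.65 (SE 0.39). With the array clusters as a block these differences were smaller, at -0.44 (SE 0.24) for Ets1, -0.22 (SE 0.24) for Sox17, -0.29 (SE 0.29) for Erg and -0.27 (SE 0.24) for Fli1.

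Etv2, the ETS factor that starts the endothelial programme in the early embryo, stood apart from the rest. Its signal was 11.8 and 61.1 after 5E1 and 52.6 and 45.7 after cyclopamine, against 132 and 119.5 after 40-1a and 101 and 83.8 after PBS. All 4 arrays of the 5E1 and cyclopamine groups lay below all 4 arrays of the 40-1a and PBS groups, which was so for 0.755% of all genes and for no other member. Its mean was 36.5 ± 34.9 after 5E1 and 126 ± 8.5 after 40-1a (SD, n = 2 each). The log2 difference was -1.82 (SE 0.55, unadjusted p 0.0116, adjusted p 1.00 in limma) for 5E1 minus 40-1a. It was -0.80 (SE 0.55) for cyclopamine minus PBS and -1.31 (SE 0.39, unadjusted p 0.0107, adjusted p 1.00 in limma) for 5E1 and cyclopamine together minus 40-1a and PBS together. The 5E1 and cyclopamine signals of its single probe set lie near or below the filter level, a signal of 60.5, where array values are least certain. Its mean log2 level of 6.21 passed the filter of 6.12 only through the 40-1a and PBS arrays. Etv2 was thus tested because it was high in the groups it was compared with, and its p-values and lack of overlap are no support for a difference. Unlike most members, it was higher in replicate 2 than in replicate 1 of 5E1, and its SD over the arrays was larger relative to the module's median, 1.01, than before, 0.89.

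Lmo2, a partner of Tal1 in blood and endothelial transcription complexes, had a signal of 579 and 515 after 5E1 and 349.6 and 402 after cyclopamine, against 536 and 351 after 40-1a and 513 and 499 after PBS. Both cyclopamine arrays were below both PBS arrays, and the log2 difference was -0.42 (SE 0.24) for cyclopamine minus PBS and 0.33 (SE 0.24) for 5E1 minus 40-1a. The difference between these 2 effects was 0.75 (SE 0.34, unadjusted p 0.0617, adjusted p 1.00 in limma). Tal1 ranged from 63.5 to 180.4 over the 8 arrays.

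Among the secreted proteins, Egfl7, a matrix protein of the endothelium, was the other member higher on average after cyclopamine. Its signal was 666 and 461 after 5E1 and 906 and 622 after cyclopamine, against 582 and 668 after 40-1a and 718 and 684 after PBS. The cyclopamine arrays lay on either side of the PBS arrays, the log2 difference was 0.10 (SE 0.26), and 2 of its 4 probe sets were lower. Mmrn2, a matrix protein that binds VEGF, ranged from 78.1 to 486, with both extremes in the 5E1 group. Esm1, a proteoglycan of endothelial tip cells, ranged from 17.6 in 40-1a replicate 2 to 205 in 5E1 replicate 1, and its difference of 0.86 after 5E1 had an SE of 0.92. Vwf, the clotting factor carrier of mature endothelium, ranged from 18.9 to 98.4, below the filter on average.

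Of the lymphatic genes, Lyve1, a hyaluronan receptor of lymphatic vessels and some macrophages, had a signal of 302 and 212 after 5E1 and 283 and 293 after cyclopamine, against 289 and 389.7 after 40-1a and 357 and 276 after PBS. The groups overlapped in both comparisons, and the log2 difference was -0.39 (SE 0.28) for 5E1 minus 40-1a and -0.12 (SE 0.28) for cyclopamine minus PBS. All 3 probe sets of Prox1, the transcription factor of lymphatic identity, lay below the filter. Nos3, the nitric oxide synthase of endothelium, ranged from 132 to 284 and was lower in both cyclopamine arrays than in both PBS arrays.

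**Figure D5:**
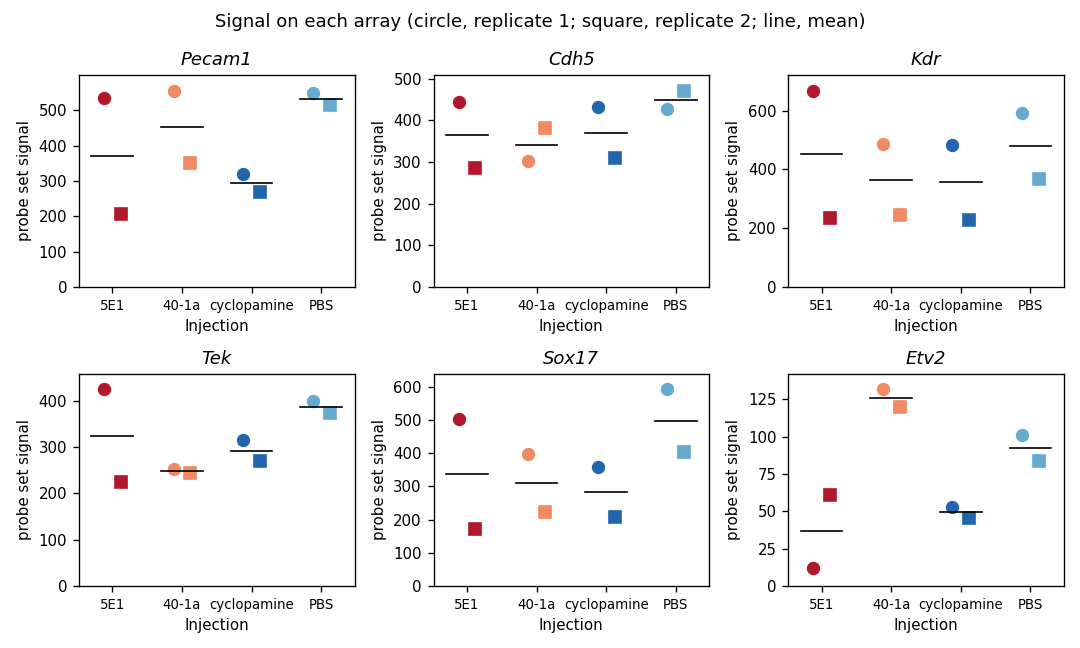
Probe set signal (linear axis from 0) of Pecam1, Cdh5, Kdr, Tek, Sox17 and Etv2 on each array of the 4 groups, with circles for replicate 1, squares for replicate 2 and lines for the mean of both. In Etv2 the 5E1 and cyclopamine arrays, at 11.8 to 61.1, all lie below the 40-1a and PBS arrays, at 83.8 to 132.

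Taking the 5E1 and cyclopamine groups together against 40-1a and PBS together, 30 members were lower and 3 higher on average, where 48.6% of all genes were lower and 51.4% higher, with a median of -0.26 and 0.0% of all genes called. The 4 arrays on each side did not overlap for Etv2, which was lower (0.755% of all genes), and for 0 members that were higher (0.616%). Etv2 alone had an unadjusted p under 0.05 (1.23% of all genes). Because Etv2 passed the filter only through its 40-1a and PBS arrays, neither is support for a difference. The control groups were also set against each other. In 40-1a compared with PBS, 29 members were lower and 4 higher (50.7% of all genes lower and 49.3% higher, 0.0% called), with a median of -0.35. None had an unadjusted p under 0.05, against 0.678% of all genes. For 12 members both 40-1a arrays lay below both PBS arrays, against 10.8% of all genes, and for Ptprb and Etv2 both lay above (9.7%). The largest of these differences was in Esm1, at -1.45 (SE 0.92). The Esm1 signal was 141 and 17.6 after 40-1a, the second under the filter level of 60.5, against 159 and 168 after PBS. Cd34 had -0.60 (SE 0.28) and Tek -0.62 (SE 0.31). 40-1a and PBS differ both in the protein injected and in the arrays' clusters. These comparisons share arrays with the 2 above and are no separate support for them.

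The antibody effect minus the cyclopamine effect was above 0 for 25 members and below 0 for 8, where 45.1% of all genes were above 0 and 54.9% below, with a median of 0.42 against -0.04. No member had an unadjusted p under 0.05 for this difference, against 1.43% of all genes, and none passed the adjusted test (0.0% of all genes). Without 5E1 replicate 1 the median was -0.18.

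Other genes of the vessel pathway were followed in 3 lists. Of 21 tested ligands that act on vessels, 12 were higher after 5E1 (median 0.03) and 11 lower after cyclopamine (median -0.05), and none passed the test. Ccbe1, which helps to activate the lymphatic ligand Vegfc, was higher in the 4 arrays of 5E1 and cyclopamine than in the 4 of 40-1a and PBS, with a pooled log2 difference of 0.54 (SE 0.22, unadjusted p 0.0431, adjusted p 1.00 in limma). Of all genes, 0.616% were higher with no such overlap and 1.23% had an unadjusted p under 0.05. Ccbe1 was named for its small pooled p among the 21 ligands. The pooled difference was -0.83 (SE 0.49) for Fgf2, -0.29 (SE 0.19) for Angpt1, the ligand of Tek, and 0.42 (SE 0.29) for Apela, a ligand of Aplnr. Of 34 tested genes of vessel co-receptors, Notch and other endothelial signalling, 19 were higher after 5E1 (median 0.02) and 22 lower after cyclopamine (median -0.13), none past the test. Their 4 smallest pooled p-values belonged to Heyl, a Notch target, at -0.37 (SE 0.17), Notch1 at 0.35 (SE 0.22), the endothelial Notch ligand Dll4 at -0.58 (SE 0.38) and Jag2 at 0.54 (SE 0.38). Notch1 and Jag2 are also made by epithelium.

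A second list of endothelial-enriched genes, none of them a member, also had its lowest median in 5E1 replicate 2. Its highest median was in 5E1 replicate 1, whereas that of the module was in PBS replicate 1. The median deviation of its 22 tested genes was 0.46 and -0.38 after 5E1, 0.06 and -0.19 after cyclopamine, 0.07 and -0.24 after 40-1a, and 0.40 and 0.03 after PBS. After cyclopamine 17 of the 22 were lower than after PBS (median -0.27), 7 with no overlap (14.3% of all genes). After 5E1 12 of the 22 were higher than after 40-1a (median 0.07), with no overlap for 4 higher (8.65% of all genes) and 1 lower (10.8%). In 40-1a minus PBS 19 of the 22 were lower (median -0.33), 5 with no overlap (10.8% of all genes), and 1 was higher with no overlap (9.7%). None passed the test. Its pooled differences with the smallest p-values were 0.50 (SE 0.26) for Mfsd2a, a lipid transporter of brain endothelium, -0.97 (SE 0.51) for the adhesion receptor Adgrl4, -0.53 (SE 0.40) for Apold1 and -0.21 (SE 0.17) for Gpihbp1.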

How the data were processed

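The authors deposited probe set intensity, linear in scale, for 8 arrays of tooth germ RNA. Per the submitters' processing notes the tool was MAS5, and its version is not given in the sources used here. On every array the mean signal after trimming 2% at each end was 500, so no scaling was added. The number of arrays limits the precision. The platform annotation, of 2016, gave 1 gene for 34945 of the 45101 probe sets, several for 932 and none for 9160, and 64 were controls. A RefSeq table held the symbol of 34943 of the single-gene ones. This covered 18161 genes, each represented by its brightest probe set on average. Signals were put on a log2(signal + 9) scale, the pseudocount being the rounded 10th percentile of the table, and this scale understates changes of dim genes. Genes under the 40th percentile of all probe sets (log2 6.12) were left out, leaving 12988.

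Tests used limma 3.58.1 under R 4.3.3 (lmFit, eBayes with trend) in 1 fit of 4 group means to 8 arrays, with 4 residual degrees of freedom and Benjamini-Hochberg adjustment over 12988 genes. In data simulated for 5E1 minus 40-1a with 100 genes changed at each size, 34% of genes changed by a log2 of 1 and 92% of those changed by 2 were called. The simulated noise was independent between genes, with a median SD of 0.26, and held no differences shared by the genes of an array. In the real arrays Ptch1 differed by -2.31 and was not called, so these shares do not carry over to the members. Intervals are 95%. Replicate numbers were checked for pairing: the correlation of deviations of same-numbered arrays was 0.32 to 0.59 in 5 pairs of groups but 0.00 for cyclopamine and PBS, and the labels name no shared litter, so the arrays were treated as unpaired.

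The members and all gene lists were chosen with earlier results of these data known. Values of every array are given for the 3 higher and the 3 lower members of smallest unadjusted p in each main comparison (only 2 were higher after cyclopamine), and for Pecam1, Cdh5, Kdr, Tek and Sox17, and of each pathway list up to 4 genes by pooled p. Alternatives varied the normalization, pseudocount, filter, probe set, variance model, blocks and arrays. Comparing arrays within 1 cluster, and members relative to the module's median, were chosen after seeing the data.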

Additional observations from a re-analysis of the deposited data

How the results depend on the processing

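No endothelial gene passed the threshold under any alternative: all 3324 member values stayed on the same side, and the smallest adjusted p in limma was 0.811 for 5E1 minus 40-1a, 0.702 for cyclopamine minus PBS, 0.843 for the pooled comparison, 0.996 for 40-1a minus PBS and 0.800 for the difference between effects. Over all genes the count, 0 without a block, was 1 for 5E1 minus 40-1a and 1 for the pooled comparison with the replicate block (Ptch1, adjusted p 0.00523 and 0.0308). With the array cluster block it was 3 for 5E1 minus 40-1a (Ptch1, Gli1, Sostdc1), 2 for the pooled comparison (Ptch1, Gli1) and 3 for the difference between effects (Ptch1, Gli1, Fos). The replicate numbers were not taken as a pairing, and the block changed no call of a member.

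Leaving out each array in turn, the module's median was -0.64 to 0.42 for 5E1 minus 40-1a, -0.61 to -0.15 for cyclopamine minus PBS, -0.44 to 0.03 for the pooled comparison, -0.63 to -0.06 for 40-1a minus PBS and -0.18 to 0.94 for the difference between effects. The sign for 5E1 minus 40-1a turned without 5E1 replicate 2 (0.42) and without 40-1a replicate 1 (0.13). That of the pooled comparison turned without 5E1 replicate 2 (0.03), and that of the difference between effects without 5E1 replicate 1 (-0.18) and with the array cluster block (-0.02). Under the 10 other settings the median was -0.12 to -0.02 for 5E1 minus 40-1a, -0.43 to -0.08 for cyclopamine minus PBS and -0.02 to 0.45 for the difference between effects. Centring each array on its median moved the median of all genes to 0.15 for cyclopamine minus PBS, where the module's was -0.30 with 29 of 33 lower. The cause of these shifts was not tested. Over the alternatives that gave 1 value a gene, the cyclopamine minus PBS difference was -1.22 to -0.44 for Ets1, -1.20 to -0.22 for Sox17, -0.97 to -0.41 for Pecam1 and -1.01 to 0.18 for Kdr. The 5E1 minus 40-1a difference was -2.69 to -0.94 for Etv2 and -0.01 to 1.31 for Flt1. These ranges leave out the probe sets tested singly. Those gave -1.26 to -0.82 for Sox17 in cyclopamine minus PBS, and -0.51 to 0.69 for Flt1 in 5E1 minus 40-1a. With 2 arrays a group, signal near the filter level (Etv2, Vwf, Prox1, and Esm1 on some arrays) limits what can be told of the dimmest members.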
